A study of Homo sapiens with 6 samples.

Results

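The genes described here mark the stem cells at the base of the intestinal crypt or are switched on there by Wnt signaling. They are LGR5, ASCL2, OLFM4, SMOC2, AXIN2, EPHB2, RNF43, SOX9, PROM1 and MYC. Their probe sets were found by gene symbol in the annotation of the array, which gave 16 of the 54614 probe sets tested and covered 9 of the 10 genes, out of 19775 genes with a probe set of their own. No probe set carries the symbol of EPHB2 in that annotation, so EPHB2 was not analysed here. LGR5, ASCL2, SMOC2 and SOX9 have 2 probe sets each, AXIN2 has 4, and OLFM4, RNF43, PROM1 and MYC have 1 each. Transcripts were read with HGU133 Plus2.0 arrays in HT-29, a line of human colon adenocarcinoma cells that carries truncated forms of the APC protein. RNA of HT-29 cells kept with 10 µM 5-aza-2′-deoxycytidine (5-Aza), an inhibitor of DNA methyltransferases, for 72 hours without serum was put on 3 arrays, and RNA of control HT-29 cells given only the solvent of water and acetate on the other 3. All samples are one cell line, and whether the arrays of a group stand for separate cultures is not given in the sources used here, so p-values measure the spread between arrays, which may be technical.

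In the crypt, Wnt ligands keep β-catenin from being broken down by the complex of APC, AXIN and GSK3 proteins, and β-catenin then joins TCF factors in the nucleus to switch on target genes. R-spondins strengthen the signal through LGR5 and its relatives, which hold back RNF43 and ZNRF3, the ubiquitin ligases that remove Wnt receptors from the cell surface. AXIN2 and RNF43 are themselves targets and act as negative feedback. In colon cancer cells with truncated APC the destruction complex works poorly and target genes are expressed without a ligand. The comparison asks how the signals of these genes differed between cells treated with the demethylating agent and control cells.

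5-Aza blocks the enzymes that methylate CpG sites, so the CpG content of the promoters is shown before the signals. Windows of 300 bases, from 250 before to 50 after the transcription start, were taken from RefSeq (GRCh38.p14) and were found for 5 of the 10 genes, EPHB2 among them, with 10 windows in all. OLFM4 and SMOC2 are printed because their signals lay at or near background, PROM1 because its windows differ most, and RNF43 because its groups of arrays were separate. Every CpG is in capitals. OLFM4 lies on the plus strand (chr13:53028563-53028862), SMOC2 on the plus strand (chr6:168440934-168441233), PROM1 on the minus strand (chr4:16083680-16083979 and chr4:16076069-16076368 for an inner start), and RNF43 on the minus strand (chr17:58417485-58417784).
OLFM4: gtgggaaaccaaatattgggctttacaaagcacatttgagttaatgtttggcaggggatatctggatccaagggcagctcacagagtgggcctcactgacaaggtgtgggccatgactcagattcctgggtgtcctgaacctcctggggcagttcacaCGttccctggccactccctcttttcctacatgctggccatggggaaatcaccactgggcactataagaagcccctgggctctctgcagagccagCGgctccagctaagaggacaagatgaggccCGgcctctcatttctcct
SMOC2: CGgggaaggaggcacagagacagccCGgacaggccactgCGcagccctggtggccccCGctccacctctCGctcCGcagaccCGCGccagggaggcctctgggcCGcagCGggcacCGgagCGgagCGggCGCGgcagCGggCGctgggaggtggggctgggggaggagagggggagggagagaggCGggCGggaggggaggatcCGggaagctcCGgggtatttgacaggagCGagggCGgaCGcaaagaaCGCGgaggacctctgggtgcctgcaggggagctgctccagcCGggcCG
PROM1: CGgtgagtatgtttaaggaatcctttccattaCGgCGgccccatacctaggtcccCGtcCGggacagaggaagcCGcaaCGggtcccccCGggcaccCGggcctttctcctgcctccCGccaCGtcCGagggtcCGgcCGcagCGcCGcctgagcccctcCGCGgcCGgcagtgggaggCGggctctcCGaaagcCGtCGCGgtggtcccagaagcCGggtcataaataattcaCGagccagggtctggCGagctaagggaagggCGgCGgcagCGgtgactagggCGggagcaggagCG
PROM1 (inner start): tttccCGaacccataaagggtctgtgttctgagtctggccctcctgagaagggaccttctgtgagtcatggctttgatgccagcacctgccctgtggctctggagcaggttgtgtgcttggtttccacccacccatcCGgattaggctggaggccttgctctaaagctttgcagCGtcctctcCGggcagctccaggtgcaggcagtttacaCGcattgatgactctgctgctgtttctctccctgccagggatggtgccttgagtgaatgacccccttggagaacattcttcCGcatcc
RNF43: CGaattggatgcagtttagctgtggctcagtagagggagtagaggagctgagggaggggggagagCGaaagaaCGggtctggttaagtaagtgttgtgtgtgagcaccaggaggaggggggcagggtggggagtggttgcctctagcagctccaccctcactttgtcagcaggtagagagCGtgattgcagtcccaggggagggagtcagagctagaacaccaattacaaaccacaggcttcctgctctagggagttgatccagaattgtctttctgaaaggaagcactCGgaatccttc

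The OLFM4 window holds 3 CpGs and the SMOC2 window 28, where the median of 35116 windows of the same length is 14 (quartiles 4 and 28). The 4 PROM1 windows hold 6, 18, 24 and 32 CpGs, and the 2 windows of RNF43 hold 0 and 5. The 2 windows of EPHB2, which overlap and are not printed, hold 49 and 48. Thus, among the pair of genes near background, one has a CpG-poor and the other a CpG-rich promoter window. The TCF motif was searched as CTTTGAT or CTTTGTT on both strands. One of them was found in 1 of the 10 windows, CTTTGAT at the inner start of PROM1, and in 7.61% of all windows. The E-box of MYC (CACGTG) and the E-box CAGCTG, which ASCL factors bind, were found in 0 of the 10 windows, and in 7.26% and 17.9% of all windows. A match is a description of the letters in the window, and methylation was not measured on these arrays.

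On every array the mean signal without the lowest and highest 2% was 500, so the arrays had been brought to a common level before deposit. The median signal was 83.1 to 85.8 on the 5-Aza arrays and 71.5 to 76.7 on the control arrays. The difference between the 3′ and the 5′ probe set of ACTB, a sign of RNA integrity, was 0.64 to 0.80 in 5-Aza-treated cells and 0.46 to 0.60 in control cells on the log2 scale, and its part in the results was not tested. Of 15 colon epithelium markers, 10 lay above background on all arrays, among them EPCAM, KRT8, KRT18, KRT20, CDH1 and VIL1, while CDX1 lay above it on none. CDX2, GPA33, PHGR1 and CDH17 lay above it on 5, 4, 4 and 3 of the 6 arrays. At an unadjusted p under 0.025 in limma 2 of the 15 were higher after 5-Aza and 0 lower, against 2.97% and 1.05% of all probe sets. These 2 were CEACAM5 and CEACAM6 (0.96 and 0.64 on the log2 scale, 5-Aza minus control). Of 8 leukocyte markers 2 lay above background on all arrays, CD79A and LYZ, and the sum of the list was 28399 to 31868 in 5-Aza-treated and 19958 to 30218 in control cells, nearly all of it LYZ, which secretory epithelial cells also make. PTPRC, the general leukocyte marker, lay above background on 1 array, 5-Aza replicate 3. CD3E and MS4A1 did so on 4 of the 6 arrays each, CD3D on 2, CD14 on 1 and CD163 on 0. The sum of 8 fibroblast and smooth muscle markers was 805 to 897 in 5-Aza-treated and 577 to 778 in control cells, and that of 5 endothelial markers was 263 to 316 in treated and 193 to 230 in control cells, so the ranges of both sums did not overlap. Only 3 of these 8 and 1 of these 5 markers lay above background on all arrays. The sum of the colon epithelium markers was 127980 to 139353 in treated and 122474 to 155417 in control cells, and its ranges overlapped. The part of these markers in the results was not tested.

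None of the 16 probe sets passed a threshold in limma with group as the only term and without a variance trend or robust estimation. At an adjusted p under 0.05 in limma, 0 of the 16 were called, where 0% of all probe sets were called, and the smallest adjusted p of a member was 0.743. The study used a p under 0.025 together with a ranking by log2 fold change for these arrays. That p alone, unadjusted and in limma, called 0 members higher and 0 lower, against 2.97% higher and 1.05% lower among all probe sets. At an unadjusted p under 0.05 the counts were also 0 and 0, against 5.26% and 1.97%. A SAM-type statistic called 0 members at an adjusted p under 0.05, and 0 of all 54614 probe sets. At its unadjusted p under 0.025 it also called 0 and 0, where 2.35% of all probe sets were called higher and 0.886% lower. When limma was given a variance trend and robust estimation, an unadjusted p under 0.025 called 1 member higher and 1 lower, against 3.37% and 1.66% of all probe sets. An adjusted p under 0.05 then called 0 members, and 23 of all 54614 probe sets. The log2 fold change (5-Aza minus control, of signals with 1 added) was positive for 6 and negative for 10 of the probe sets, with a median of -0.11, beside 0.062 for all probe sets. Among probe sets above background on every array, the median was -0.14 for the 11 members and 0.026 for all. The SD over replicate arrays of the median of the 16 was 0.17, and its difference from all probe sets was not tested. After each array was centred on its median, 2 of the 16 were positive and 14 negative with a median of -0.30, beside -0.12 for all probe sets. Centring moves every probe set by the same amount, so the second split is set by that shift and tells nothing further about the members. Of the 16, 2 lay above background on no array, and their signs carry no information. In 1 probe set every 5-Aza array lay above every control array and in 2 below, where 9.29% and 5.22% of all probe sets showed this. For 11 of the 16 the 95% interval of the difference lay inside a doubling or a halving.

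**Figure D1:**
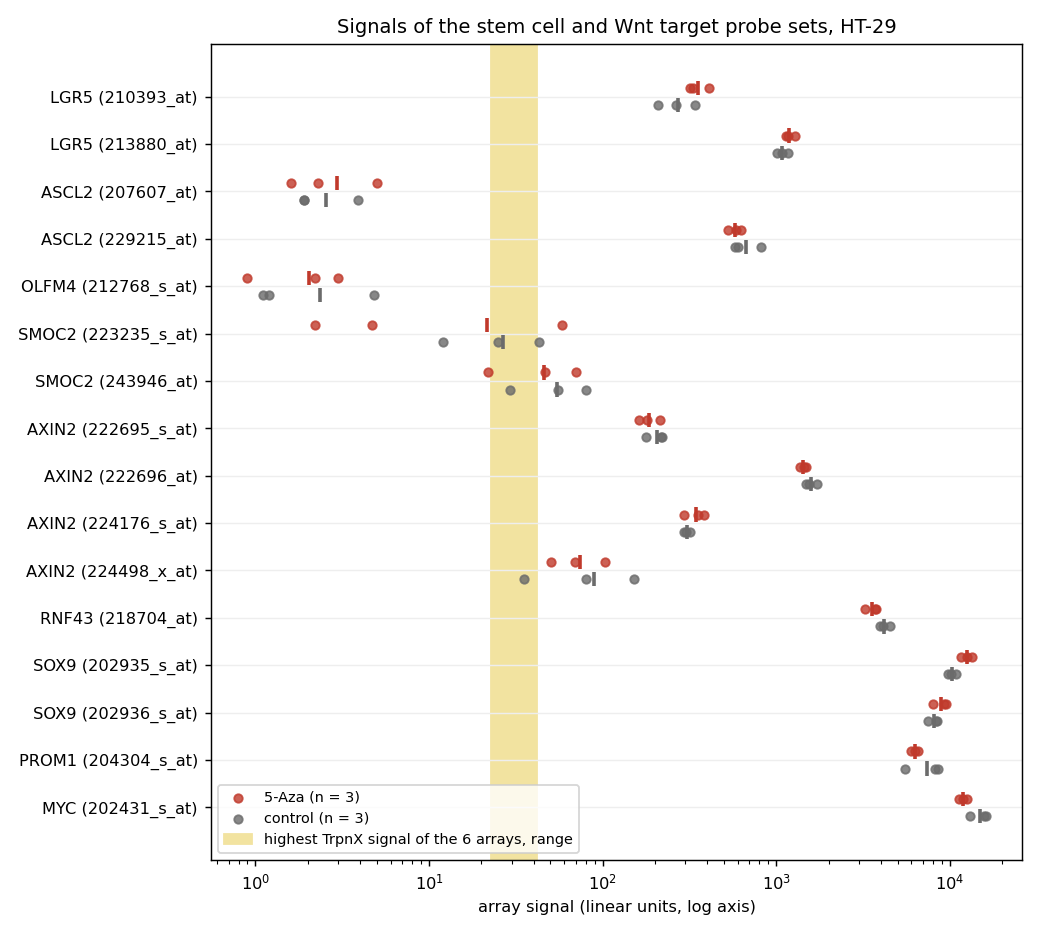
Array signals (linear units, log axis) of the 16 probe sets on 3 arrays of 5-Aza-treated HT-29 cells (red) and 3 of control cells (grey). Points are single arrays, short bars group means, and the yellow band is the range over the arrays of the highest signal of the bacterial TrpnX probe sets (22.6 to 42), taken as background. OLFM4 and 1 probe set of ASCL2 lie left of the band on all arrays, and RNF43, SOX9, PROM1 and MYC far to the right.

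LGR5, the R-spondin receptor that marks cycling crypt stem cells, was detected by both of its probe sets. With 213880_at its signal was 1275.8, 1131.5 and 1162.1 in 5-Aza-treated cells and 1005.4, 1166.9 and 1084.6 in control cells. Only the overlap between 5-Aza replicates 2 and 3 and control replicate 2 kept the groups from being separate. The mean was 1190 ± 76.0 in treated and 1086 ± 80.8 in control cells (mean ± SD, n = 3 each), a log2 change of 0.13 (SE 0.15, adjusted p = 0.874, limma), with a 95% interval from 0.85-fold to 1.41-fold. This direction turned after median centring (-0.054). With 210393_at the signal was 318.8, 409 and 329.7 in treated cells and 265.1, 342.5 and 209 in control cells. Control replicate 2 again lay among the treated arrays, and the log2 fold change was 0.39 (SE 0.24, adjusted p = 0.793), with values of 0.57 without that array and 0.22 without control replicate 3. Both differences were positive on this scale, the groups overlapped in both, and neither passed a test (two-sided exact permutation p = 0.3 for each).

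OLFM4, a secreted glycoprotein that marks crypt base stem cells in the human intestine, was not told apart from background. Its signal was 2.2, 3 and 0.9 in 5-Aza-treated cells and 1.1, 1.2 and 4.8 in control cells, under the TrpnX level on each of the 6 arrays. The groups overlapped, and no change is read from signals under background. SMOC2, a matricellular protein enriched in the same cells, was close to background. With 243946_at it had 69.9, 46.8 and 22 in treated and 55.1, 29.1 and 80.2 in control cells, above the level of the same array on 2 arrays in each group. With 223235_s_at it had 2.2, 58 and 4.7 in treated and 25, 12.1 and 43.2 in control cells. The log2 fold changes were -0.27 (SE 0.56) and -1.27 (SE 1.20), with intervals from 0.31-fold to 2.21-fold and from 0.051-fold to 3.36-fold, so changes in either direction were within the error. Without 5-Aza replicate 2, the array with 58, the value of 223235_s_at was -2.53 and passed an unadjusted p under 0.025, and after 16 instead of 1 was added it was -0.43.

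ASCL2, the transcription factor that maintains the crypt stem cell state, was detected with 229215_at only. Its signal was 530.5, 623.1 and 589.1 in 5-Aza-treated cells and 602.7, 821.7 and 577 in control cells. Control replicate 2 was the highest of all, and the other arrays of both groups overlapped. The mean was 581 ± 46.8 in treated and 667 ± 134 in control cells (mean ± SD, n = 3 each), a log2 change of -0.18 (SE 0.20, adjusted p = 0.870, limma), which was -0.025 without control replicate 2 and -0.28 without control replicate 3. The other probe set, 207607_at, had signals between 1.6 and 5 on the treated and between 1.9 and 3.9 on the control arrays, all under background. PROM1 (CD133), a membrane protein used as a marker of intestinal progenitors and of tumor cells, had signals of 5966.4, 6565.7 and 6296.1 in treated cells and 8491, 5493.2 and 8185 in control cells. Control replicate 2 lay below all treated arrays and the other control arrays above them. The log2 fold change was -0.21 (SE 0.22, adjusted p = 0.868), with -0.41 without control replicate 2, -0.097 without control replicate 1 and -0.12 without control replicate 3. The SD within groups of PROM1 was 0.25 on the log2 scale, where the median of the 1000 probe sets of nearest signal was 0.11.

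Among the feedback genes, AXIN2, a scaffold of the destruction complex whose transcription follows β-catenin activity, had 4 probe sets with log2 fold changes on both sides of 0. None passed an unadjusted p under 0.025 in limma, and their differences from each other were not tested. With 222696_at, which had the highest mean signal of the 4, the signal was 1436.5, 1372.5 and 1485.1 in 5-Aza-treated cells and 1540.3, 1481.7 and 1709.2 in control cells. The groups touched at 5-Aza replicate 3 and control replicate 2, and the log2 fold change was -0.14 (SE 0.14, adjusted p = 0.868, limma), with a 95% interval from 0.71-fold to 1.16-fold. The other log2 fold changes were -0.15 (SE 0.19) with 222695_s_at, 0.16 (SE 0.16) with 224176_s_at and -0.080 (SE 0.59) with 224498_x_at, and the groups overlapped in each. The probe set 224176_s_at had 293.4, 382.3 and 352.8 in treated and 318, 295.9 and 300.9 in control cells, and its direction turned after median centring (-0.026). The probe set 224498_x_at, whose suffix marks probes that also match other transcripts, varied most, with 50.7, 103 and 69.6 in treated and 80.1, 150.9 and 35.4 in control cells.

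RNF43 had a lower signal on every 5-Aza array. It was 3693.5, 3229.2 and 3761 in treated and 4099.4, 4512.5 and 3981.5 in control cells, and no value of one group reached the other (two-sided exact permutation p = 0.1, the smallest that 3 arrays against 3 allow). The mean was 3561 ± 290 in treated and 4198 ± 279 in control cells (mean ± SD, n = 3 each), a log2 change of -0.24 (SE 0.15, adjusted p = 0.795, limma), with a 95% interval from 0.65-fold to 1.10-fold. It did not pass an unadjusted p under 0.025 here or in any alternative run. ZNRF3, the other ligase of this kind, had 3209 ± 113 in treated and 3379 ± 229 in control cells (mean ± SD, n = 3 each), with overlapping groups and a log2 change of -0.073.

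SOX9, a transcription factor of crypt base cells that is itself a Wnt target, and MYC, the transcription factor that drives growth and division downstream of β-catenin, were strongly expressed and lay on opposite sides of 0. With 202935_s_at SOX9 had 12536.4, 11633.9 and 13480.2 in 5-Aza-treated cells and 9771.1, 10117 and 10900.2 in control cells. Every treated array was above every control array (two-sided exact permutation p = 0.1), and the log2 fold change was 0.29 (SE 0.14, adjusted p = 0.752, limma), with a 95% interval from 0.95-fold to 1.57-fold. The second probe set, 202936_s_at, had 9496.8, 8011.5 and 9271.7 in treated and 8343.1, 8411.4 and 7486.8 in control cells. Here 5-Aza replicate 2 lay among the control arrays, and the log2 fold change of 0.14 (SE 0.15) turned to -0.045 after median centring, while that of 202935_s_at was then 0.10.

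MYC had 11910.9, 12539.9 and 11217.2 in 5-Aza-treated cells and 15652.1, 16052.1 and 13079.7 in control cells. All treated arrays were below all control arrays, with control replicate 3 the closest to them (two-sided exact permutation p = 0.1). The mean was 11889 ± 662 in treated and 14928 ± 1613 in control cells (mean ± SD, n = 3 each), a log2 change of -0.32 (SE 0.16, adjusted p = 0.743, limma), with a 95% interval from 0.61-fold to 1.05-fold. The value lay between -0.51 and -0.27 in the alternatives run, so its direction did not turn in these. In limma with a signal-dependent variance trend and robust estimation, tried together, SOX9 (202935_s_at, unadjusted p = 0.0057) was called higher and MYC (unadjusted p = 0.00481) lower. These are the calls counted above, and their adjusted p over all probe sets was 0.367 for SOX9 and 0.358 for MYC.

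**Figure D2:**
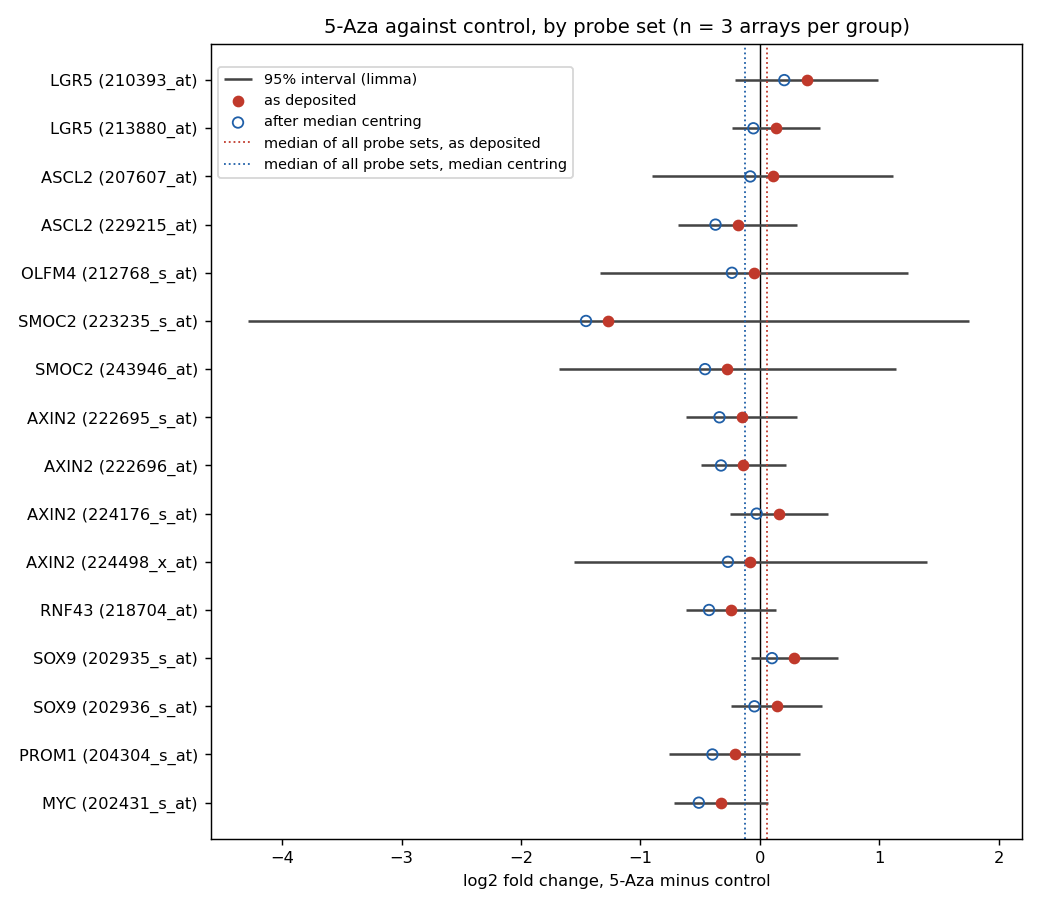
Log2 fold change (5-Aza minus control) of the 16 probe sets, n = 3 arrays per group. Red points are the deposited scale with 95% intervals from limma (black lines), blue circles the values after median centring, and dotted lines the median of all probe sets on each scale (0.062 and -0.12). OLFM4 and ASCL2 (207607_at) were under background on all arrays. All 16 intervals cross 0, and SMOC2 (223235_s_at) has the widest.

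The weak and the strong probe sets differed in what could be seen. Among all probe sets, the middle 95% of log2 fold changes ran from -1.24 to 1.89 in the bin with a median signal of 49.3 and from -0.32 to 0.34 in that with the strongest signals (median 5904). Among the members, 15 of the 16 probe sets lay within the range of the bin nearest to them in signal, and MYC lay just past its lower edge, both -0.32 after rounding. The SD within groups was under that of probe sets of like signal in 7 of the 16.

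**Figure D3:**
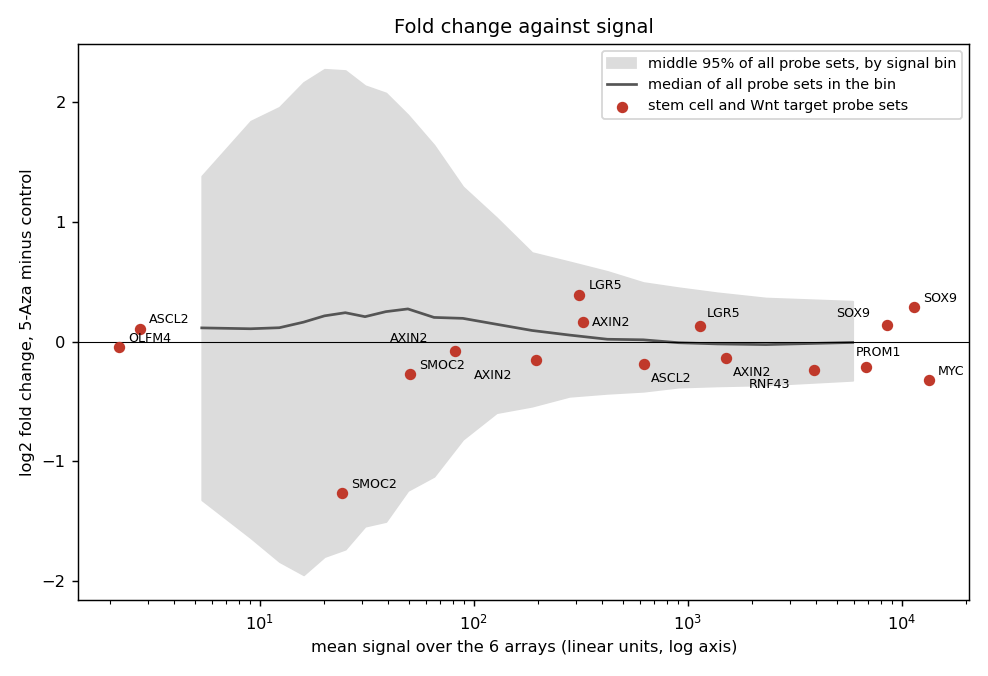
Log2 fold change (5-Aza minus control) against mean signal over the 6 arrays (log axis). Red points are the 16 probe sets, the grey band holds the middle 95% of all probe sets in 20 bins of signal, drawn at the median of each bin, and the dark line is their median. The band is narrowest for the strongest signals, and the strongest points (SOX9, PROM1 and MYC) lie beyond the median of the last bin.

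The other genes of the pathway were taken from 8 lists with 166 genes, of which 151 had a probe set, 1 for each gene. At an adjusted p under 0.05 in limma 0 of the 151 were called (0 of all 54614 probe sets). The SAM-type statistic also called 0 (0 of all probe sets), and trend and robust variance called 0 (23 of all probe sets). In limma an unadjusted p under 0.025 was reached by 2 of the 151 that were higher and 2 that were lower, or 1.32% each, beside the 2.97% and 1.05% of all probe sets, and at an unadjusted p under 0.05 there were 5 and 3. All treated arrays lay above all control arrays in 15 of the 151 and below in 11, beside 9.29% and 5.22% of all probe sets. The median log2 fold change of the 151 was 0.0086, beside 0.062 for all probe sets.

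The following counts of higher and lower genes use the unadjusted p under 0.025 in limma. Of all probe sets, 2.97% were higher and 1.05% lower at this p. Of 17 Wnt and R-spondin receptors, 1 was higher and 0 were lower. FZD4, a Frizzled receptor for Wnt ligands and for norrin, had 331.9, 314.7 and 340.9 in 5-Aza-treated cells and 173.3, 195 and 193.3 in control cells. The groups were far apart compared with their spread, and the log2 fold change was 0.81 (SE 0.14, adjusted p = 0.320, limma). Without 1 array it was 0.76 to 0.84. LGR4, the relative of LGR5, had a log2 change of 0.051 (SE 0.14). All treated arrays exceeded all control arrays in 2 of the 17 receptors (FZD4 and LRP6). They all lay below in 3 (FZD1, FZD2 and ROR2), and ROR2 was above background on 1 array only. Over all probe sets the shares were 9.29% above and 5.22% below. Among 22 Wnt and R-spondin ligands, 0 were higher and WNT5A, a ligand of β-catenin-independent signaling, was lower. It had 2.2, 2 and 6.7 in treated and 21.2, 12.8 and 43.9 in control cells, and only control replicate 3 exceeded the TrpnX level of its own array, so the log2 fold change of -2.51 (SE 0.58) depends on the constant added (-1.04 with 16 added). Of these ligands 5 lay above background on all arrays.

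Of 29 further Wnt targets, 1 was higher and 0 lower. This was ABCB1, a drug efflux transporter, with 72.5, 118.3 and 62.4 in 5-Aza-treated and 40, 30.4 and 43.8 in control cells, a log2 change of 1.09 (SE 0.30, adjusted p = 0.566, limma). All treated arrays were above all control arrays. Its call was lost without 5-Aza replicate 1 (1.17), control replicate 1 (1.13) or control replicate 2 (0.94), in the trend fit with robust variance, with the SAM-type statistic (unadjusted p = 0.0262), and after quantile normalization or median centring (0.90 each). The list had a median of 0.10 with 16 positive and 13 negative members. In 5 of the 29 the treated arrays all exceeded the control arrays (ABCB1, LEF1, NKD1, MMP7 and CLDN1) and in 1 they all lay below (EDN1), beside 9.29% and 5.22% of all probe sets. LEF1, a TCF family member induced by Wnt signaling, had 41.2 ± 12.4 in treated and 22.6 ± 4.63 in control cells (mean ± SD, n = 3 each), and NKD1, a feedback inhibitor, had 151 ± 14.6 in treated and 119.6 ± 14.1 in control cells. LEF1 lay above background on 3 of the 6 arrays. Both were higher on every treated array without passing an unadjusted p under 0.025 (log2 fold changes 0.81 and 0.34). MMP7, a matrix metalloproteinase, and CLDN1, a tight junction protein, had log2 fold changes of 0.46 (SE 0.18) and 0.40 (SE 0.15), and EDN1, the endothelin precursor, had -0.42 (SE 0.26). Their p was also above 0.025. CCND1 and CD44 had log2 fold changes of -0.063 and 0.20 with overlapping groups. LEF1, NKD1, MMP7, CLDN1, EDN1, CCND1, CD44, LGR4 and ZNRF3 were chosen after their values had been seen.

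Of 20 further genes used as crypt stem or progenitor markers, 0 were higher and 1 was lower, FABP6, with 468.4, 499.9 and 399.3 in 5-Aza-treated and 867.9, 617.3 and 802.7 in control cells. FABP6 encodes a bile acid-binding protein of the ileum that colorectal tumors also express, and is no marker of stem cells proper. Its log2 fold change was -0.73 (SE 0.20, adjusted p = 0.564, limma), with separate groups. The call was lost without 5-Aza replicate 1 (-0.76) or 3 (-0.64) and without control replicate 1 (-0.63) or 3 (-0.69), as well as with the SAM-type statistic (unadjusted p = 0.0454). The list had a median of 0.16 with 13 positive and 7 negative members. All treated arrays exceeded all control arrays in 6 of the 20 (SLC12A2, ALCAM, CDK6, ZNF503, AQP1 and ITGB1), each with an unadjusted p above 0.025. They all lay below in 1, FABP6. Over all probe sets the shares were 9.29% above and 5.22% below.

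Of 27 genes of the β-catenin destruction complex and the TCF transcription complex, 0 were higher and 0 lower. AXIN1, the constitutive relative of AXIN2, had 428.3, 491.9 and 387.2 in 5-Aza-treated and 501.3, 675.7 and 739.4 in control cells, a log2 change of -0.54 (SE 0.21, adjusted p = 0.690, limma), and all treated arrays lay below all control arrays. Of the 27 genes, 1 had all treated arrays below and 0 had them above, beside 5.22% and 9.29% of all probe sets. AXIN1 passed an unadjusted p under 0.025 after median centring (-0.73), in the trend fit with robust variance, without control replicate 1 (-0.70), and when probe sets of lower signal were left out. APC2, a relative of APC, had -0.32 (SE 0.36). APC, CTNNB1 (β-catenin) and TCF7L2, named after their values were seen, had log2 fold changes of 0.23 (SE 0.25), 0.14 (SE 0.17) and -0.10 (SE 0.15), with overlapping groups.

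Of 23 MYC target genes, which serve ribosome production and cell growth, 0 were higher and 0 lower, with a median log2 fold change of -0.026 and 15 negative members. All treated arrays lay below all control arrays in 3 of the 23 (FBL, CDK4 and NOLC1) and above in 1 (CAD). Each of these had an unadjusted p above 0.025 in limma, and the shares of all probe sets were 5.22% and 9.29%. Among the MYC targets above background on all arrays, the largest absolute values were those of RRP9 (-0.28, SE 0.19), a nucleolar protein, and CDC25A (-0.26, SE 0.21), a cell cycle phosphatase. Of 11 partners and antagonists of MYC, 0 were higher and 0 lower. MXI1, a repressor that competes with MYC for MAX, had 2421 ± 76.0 in 5-Aza-treated and 3195 ± 545 in control cells (mean ± SD, n = 3 each), with separate groups and a log2 change of -0.39 (SE 0.18, adjusted p = 0.728, limma). Of the 11, 1 had all treated arrays below and 0 had them above, beside 5.22% and 9.29% of all probe sets. MXI1 passed an unadjusted p under 0.025 only in the trend fit with robust variance. MYCL, a MYC paralog, had 623, 781.2 and 671.1 in treated and 1343.9, 319 and 1426.7 in control cells. Control replicate 2 lay below all other arrays there, the log2 fold change was -0.30 (SE 0.63), and without that array it was -1.01 and passed an unadjusted p under 0.025. In the EPHB and ephrin-B family of 7 measured genes 0 were higher and 0 lower, and EFNB1 and EPHB6 had log2 fold changes of -0.38 (SE 0.36) and 0.24 (SE 0.21), which were -0.062 without 5-Aza replicate 2 for EFNB1 and 0.11 without control replicate 1 for EPHB6. The SAM-type statistic called 1 gene of this family higher, EFNB3, an ephrin-B ligand, with 75.3, 17.3 and 63.1 in 5-Aza-treated and 13.4, 11.2 and 14 in control cells. It lay above background on 2 of the 6 arrays.

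**Figure D4:**
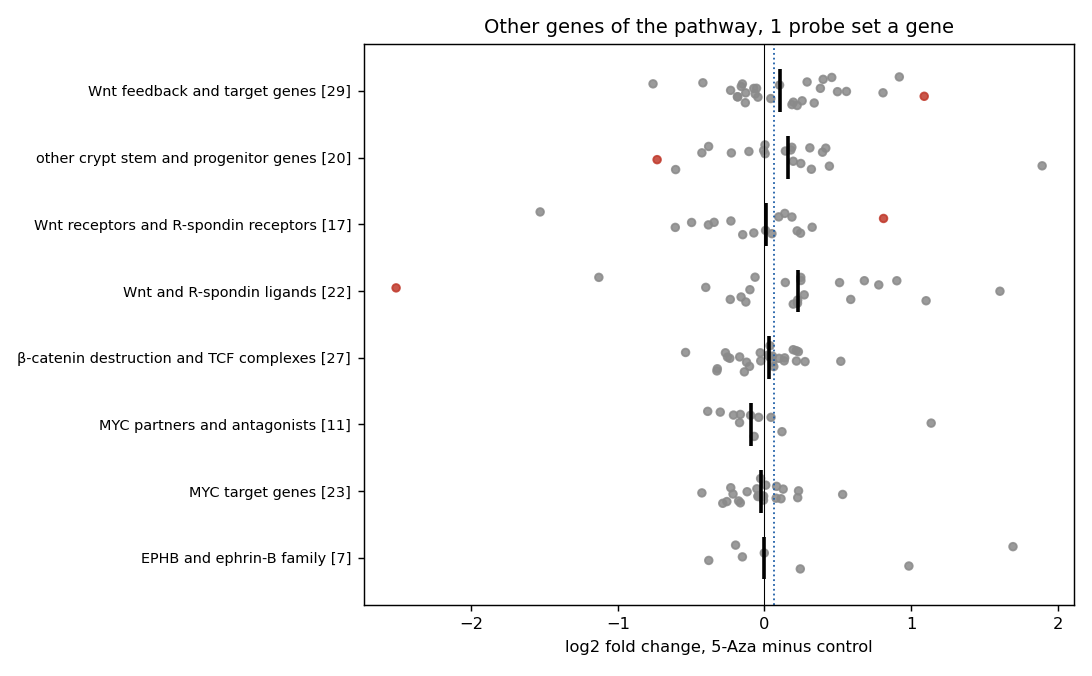
Log2 fold change (5-Aza minus control) of the measured genes of 8 lists, 1 probe set for each gene, n = 3 arrays per group. Red points passed an unadjusted p under 0.025 in limma, black bars are list medians, the dotted line is the median of all probe sets (0.062), and the number of genes is in brackets. The 4 red points are ABCB1, FABP6, FZD4 and WNT5A.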

How the data were processed

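HT-29 cells were analysed on 6 arrays, 3 of 5-Aza-treated and 3 of control cells, grouped by the labels. The deposited values are array signal intensities, 1 per probe set, on a linear scale that the authors had scaled to a common trimmed mean of 500 (2% left out at each end); the submitters' notes name the affy package, and the background correction is not given in the sources used here. Of 54675 probe sets, 61 control probe sets were left out. On log2 of the intensity with 1 added, limma 3.58.1 (R 4.3.3) was fitted by group, with Benjamini-Hochberg adjustment over all 54614 probe sets. The highest TrpnX signal of an array served as its background, and the number of arrays limits the precision. A SAM-type statistic over the 20 labellings (SAM being the test of the study), trend and robust variance, quantile normalization, median centring, filters, another added constant, a replicate block and leaving out single arrays were alternatives. The scripts were tested on simulated data. For each list, genes past an unadjusted p under 0.025 were named (up to 4), otherwise the 2 largest changes above background, with the strongest single-symbol probe set (not _x_at where another existed). The members and lists were chosen with earlier results of these data known. Gene names come from the annotation of the array, and promoter windows from RefSeq.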

Additional observations from a re-analysis of the deposited data

How the results depend on the processing

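The following counts use an unadjusted p under 0.025 in limma, and the cause of each change was not tested. Of the member probe sets 0 were higher and 0 lower, but with trend and robust variance 1 was higher (SOX9) and 1 lower (MYC), and leaving out 1 array gave 0 to 1 lower, the 1 being SMOC2 (223235_s_at, -2.53) without 5-Aza replicate 2. Of the pathway genes 2 were higher (2.97% of all probe sets), against 6 with trend and robust variance (3.37%), 1 after quantile normalization (2%), 1 after median centring (1.7%), 4 among probe sets above the median signal (4.39%), and 1 to 5 without 1 array (5 without 5-Aza replicate 2, with 2.49%, and 1 without control replicate 1, with 2.8%). With the SAM-type statistic 2 were higher (2.35%), FZD4 and EFNB3. Likewise 2 were lower (1.05% of all probe sets), against 1 with the SAM-type statistic (0.886%), 6 with trend and robust variance (1.66%), 4 after median centring (2.66%), and 2 to 4 without 1 array (4 without control replicate 2, with 1.31%). The median log2 fold change of the members was -0.11, -0.30 after median centring, and -0.20 (without 5-Aza replicate 2) to -0.011 (without control replicate 3) when 1 array was left out. Median centring, a shift common to all probe sets, also turned the sign of LGR5 (213880_at, -0.054), ASCL2 (207607_at, -0.080), AXIN2 (224176_s_at, -0.026) and SOX9 (202936_s_at, -0.045). Leaving out 1 array turned that of SMOC2 (243946_at, -0.66 to 0.17), AXIN2 (224498_x_at, -0.62 to 0.41) and MYCL (-1.01 to 0.072, with 0.029 without control replicate 1 and 0.072 without control replicate 3). ASCL2 (207607_at, -0.24 to 0.37) and OLFM4 (-0.30 to 0.43) were under background on all arrays, so neither their values nor their signs are read.

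With the replicate block, 1 pathway gene was higher and 1 lower (2.57% and 0.93% of all probe sets), ABCB1 and FABP6 no longer passing, and 0 member probe sets were called in either direction. Same-numbered arrays did not deviate together over all probe sets (correlations -0.012, 0.0021 and 0.0097). These correlations include probe sets near background, so they cannot tell whether the arrays share more than a number. Among the values of single probe sets under the alternatives, 305 kept their direction and side of the threshold, 9 newly passed it, 12 no longer passed it and 15 turned sign. Signals near background limit what can be seen for OLFM4, SMOC2 and 1 probe set of ASCL2.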
